A study of Mus musculus with 22 samples.

Results

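The genes described here are 10 secreted proteins that draw neutrophils, monocytes and other myeloid cells into tissue, or drive their production, in 22 mouse mammary cell lines. They are the chemokines Cxcl1, Cxcl2, Cxcl5, Ccl2, Ccl7 and Ccl20, the colony-stimulating factors Csf1, Csf2 and Csf3, and the lipocalin Lcn2. They were chosen by gene symbol among the 14860 genes that the value table names, and each of the 10 had 1 probe set. All 10 were among the 16755 probe sets tested, so none was lost to a filter.

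RNA of each line was hybridized to 1 mouse exon array, and every value below is the deposited table's value for that line, read as log2. Tumours of engineered mice (GEM) gave 12 of the 22 lines, spontaneous tumours gave 8, and the other 2 are immortalized mammary lines. Lines that share a tumour or a parent line were averaged into 1 lineage for every group value and test, which gave 10 GEM lineages, 5 spontaneous lineages and 2 immortalized lines. With 1 array per line, a difference between 2 lines has no replicate error, and the order of neighbouring lines in a ranking has none either.

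The 5 Myc lineages are 6DT1, cMyc and Myc83, with MMTV-Myc, and MVT1 and MVT2, with MMTV-Myc-VEGF. MMTV is a viral promoter active in mammary epithelium. The 5 other GEM lineages are the MMTV-Wnt pair 2508 and 2855, line 780, line DB7, the pair M6 and M6C, and line p1522. Line 780 lacks a BRCA gene that the labels do not specify, under Wap-cre. DB7 came from a transplanted tumour with a polyoma middle T mutant uncoupled from PI3K, M6 carries C3(1)Tag, and M6C was taken from a lung metastasis of M6. Line p1522 lacks p53 under MMTV-cre. For both 780 and p1522 the sample description and the growth text give different p53 genotypes, so their p53 state is uncertain. The spontaneous lineages are 67NR with 4T07 and 4T1, D20R with D2A1, EMT6, F311 and TSA, and the immortalized lines are EPH4, with an empty retroviral vector, and NMUMG. 67NR, 4T07 and 4T1 came from a single BALB/cfC3H tumour, and the labels call 67NR non-disseminating, 4T07 disseminating without growth in lung, and 4T1 fully metastatic. 67NR and 4T07 also carry drug resistance from transfection, whereas the resistance of 4T1 arose spontaneously. The labels give growth media for the GEM lines only. Lines 6DT1, cMyc and Myc83 were in low-glucose DMEM, and 2508 and 2855 in DMEM/F12 with insulin and EGF. MVT1, MVT2 and 780 were in high-glucose DMEM with glutamine and non-essential amino acids. DB7, M6 and M6C were in high-glucose DMEM with pyruvate, and p1522 in high-glucose DMEM.

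Cxcl1, Cxcl2 and Cxcl5 signal through the receptor Cxcr2 on neutrophils and pull these cells out of blood. Ccl2 and Ccl7 act on Ccr2 of monocytes, and Ccl20 acts on Ccr6 of lymphocytes and dendritic cells. Csf1 sustains macrophages, Csf2 acts on granulocytes, macrophages and dendritic cells, and Csf3 drives neutrophil production in the marrow. Lcn2 is an iron-scavenging protein of neutrophil granules and inflamed epithelium. In mammary tumours, tumour cells are among the sources of these proteins, and many of their genes are targets of the transcription factor NF-kappaB.

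Some of the genes sit near one another in the mouse genome. Cxcl1 and Cxcl2 on chromosome 5 have 0 other protein-coding genes between them in RefSeq, and Cxcl5 lies on the same chromosome with 4 protein-coding genes between it and Cxcl1. On chromosome 11, Ccl2 and Ccl7 are also direct neighbours. RefSeq promoter sequences of GRCm38.p6 were matched for 6 of the 10 genes, Cxcl1, Cxcl2, Csf1, Csf2, Ccl20 and Lcn2. The 250 bases before the start of Cxcl1 (chr5:90890995-90891244, plus strand), of Cxcl2 (chr5:90903649-90903898, plus strand) and of Ccl20 (chr1:83116516-83116765, plus strand) are shown because each holds a match to the kappaB consensus, the binding motif of NF-kappaB. Capitals mark the matches.
Cxcl1: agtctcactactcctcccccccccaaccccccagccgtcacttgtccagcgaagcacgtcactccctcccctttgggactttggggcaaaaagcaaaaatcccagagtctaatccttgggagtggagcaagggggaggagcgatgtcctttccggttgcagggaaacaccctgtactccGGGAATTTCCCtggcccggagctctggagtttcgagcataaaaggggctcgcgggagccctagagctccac
Cxcl2: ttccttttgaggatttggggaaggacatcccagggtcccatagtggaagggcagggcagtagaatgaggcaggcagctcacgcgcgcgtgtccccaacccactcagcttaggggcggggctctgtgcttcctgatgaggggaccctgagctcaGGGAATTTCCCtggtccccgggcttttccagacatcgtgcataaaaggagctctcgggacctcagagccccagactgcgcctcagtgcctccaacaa
Ccl20: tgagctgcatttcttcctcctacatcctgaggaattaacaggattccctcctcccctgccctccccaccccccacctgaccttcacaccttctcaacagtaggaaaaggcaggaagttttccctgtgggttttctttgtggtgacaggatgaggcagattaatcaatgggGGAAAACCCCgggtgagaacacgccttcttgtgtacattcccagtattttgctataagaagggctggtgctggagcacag
Of the 6 promoters, 4 held a kappaB consensus match on either strand within 250 bases (Cxcl1, Cxcl2, Csf1 and Ccl20), against 7.25% of 32851 RefSeq mouse promoters of the same length. The letters GGGAATTTCC, looked for after the sequences had been read, begin 71 bases before the start of Cxcl1 and 97 bases before that of Cxcl2, and they occur in 0.0852% of all promoters. In both genes these letters and the next base hold 2 overlapping consensus matches, 1 on each strand, and the run of 14 bases GGGAATTTCCCTGG is shared by the pair. The Csf1 match was GGAAAGTCCC at 154 bases before the start. A C/EBP motif, TTGCNNAA, was found in the promoters of Csf2 and Lcn2 and in 9.56% of all promoters, and the AP-1 motif TGANTCA was in 0 of the 6 and in 6.75% of all promoters. A match in this window is a description of its letters.

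The lines were checked against cell type markers before the genes were read. Leukocyte markers were mostly below the array medians. Ptprc, the common leukocyte antigen, ran from 4.30 to 4.93, and the mean of the 10 measured leukocyte markers ran from 5.26 in M6C to 6.02 in MVT1, where array medians lay between 6.78 and 7.17. Cd3e and Elane exceeded every array median in 1 line each, and Cd68 did so in 13 of the 22. This lysosomal protein of macrophages stood at 8.98 in 6DT1, 9.72 in cMyc, 10.56 in MVT1 and 10.06 in MVT2. It was at 8.62 in EMT6, 8.55 in p1522 and 7.28 in Myc83. Endothelial markers averaged 4.70 to 5.39. Epithelial identity was uneven, with the mean of 7 epithelial markers running from 6.22 in 67NR to 10.52 in M6. Epcam, a surface protein of epithelium, exceeded every array median in 9 lines, Cdh1 (E-cadherin) in 11 and the keratin Krt18 in 20. The arrays of 2508, 2855 and F311 had the narrowest spread of values (SD 1.76 to 1.88, others up to 2.12), and 2 of the 3 comparisons below were repeated without them.

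The genes differed widely in how far they varied between lines. Lcn2 had a 351-fold range over the 22 lines and Cxcl5 a 58.9-fold range. Their SD over the 17 lineages, 2.57 and 1.98, exceeded that of 99.98% and 99.8% of tested probe sets. Ccl2 spanned 25.8-fold, Csf1 12.8-fold, Ccl7 12.7-fold, Cxcl1 8.36-fold and Csf3 7.94-fold. Csf2 varied least, with a range of 1.93-fold and an SD of 0.17, larger than that of 8.17% of probe sets. Csf1 was above its array's median in all 22 lines, and Ccl2 in 21. Csf2 was below it in all 22, and Cxcl2, Csf3 and Ccl20 were above it in 1, 2 and 2 lines. The array median is a mark within an array and not a detection call, which the table does not hold.

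**Figure D1:**
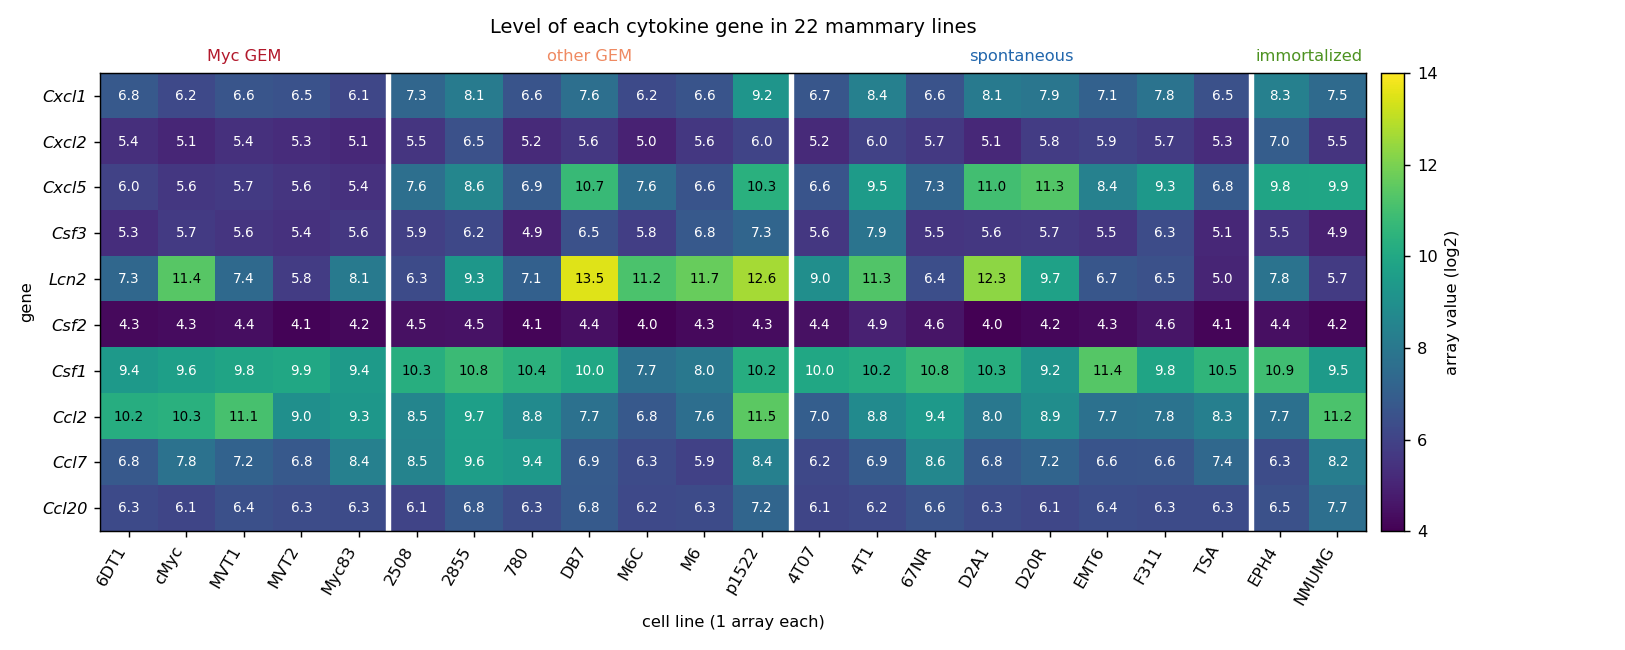
Log2 array value of each of the 10 genes in each of the 22 lines, 1 array per line, as a heat map with lines in columns grouped by origin. Lcn2 runs from 5.05 in TSA to 13.50 in DB7, whereas every Csf2 value lies between 3.98 and 4.92.

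The first comparison asked how lineages with a Myc transgene differ from other GEM lineages. The chemokine Cxcl5, a neutrophil attractant of epithelial cells, separated the groups. Its levels were 5.98 in 6DT1, 5.72 in MVT1, 5.56 in MVT2, 5.44 in Myc83 and 5.64 in cMyc. In the other GEM lines it stood at 7.65 in 2508, 8.60 in 2855, 6.86 in 780, 10.74 in DB7, 6.62 in M6, 7.55 in M6C and 10.33 in p1522. All Myc lines lay below all other GEM lines, and the 5 Myc lines were also the lowest of the 22. The Myc lineages averaged 5.67 ± 0.20 (SD, n = 5) and the others 8.63 ± 1.81 (SD, n = 5), a difference of -2.96 (SE 0.70) or 7.78-fold. The exact two-sided permutation test over lineages gave p = 0.00794, the smallest that 5 against 5 can give. Over all 16755 probe sets the limma adjusted p was 0.643 with an unadjusted p of 0.00135, so the difference did not pass the threshold of 0.05. In bulk RNA of a line, fewer expressing cells and less RNA per cell cannot be told apart. Myc lineages lay below every other GEM lineage for 1 of the 10 genes and for 0.376% of all probe sets.

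Cxcl1, a ligand of Cxcr2 made early in inflammation, was at 6.79 in 6DT1, 6.65 in MVT1, 6.53 in MVT2, 6.14 in Myc83 and 6.20 in cMyc. Among the other GEM lines it was highest in p1522 at 9.21, followed by 2855 at 8.14, DB7 at 7.65 and 2508 at 7.30, with 780 and M6 at 6.58 and M6C at 6.24. The groups overlapped, since 780 and the M6 pair lay within the Myc range. The mean difference was -1.05 (SE 0.45, limma adjusted p = 0.900, exact permutation p = 0.0714), and without p1522 it was -0.63. Cxcl2, which acts on the same receptor, ran from 5.07 to 5.39 in the Myc lines and from 4.95 to 6.48 in the other GEM lines. Its difference was -0.38 (SE 0.18, limma adjusted p = 0.963).

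Lcn2 was at 7.35 in 6DT1, 7.42 in MVT1, 5.77 in MVT2, 8.07 in Myc83 and 11.40 in cMyc. It reached 13.50 in DB7, 12.64 in p1522, 11.66 in M6 and 11.17 in M6C, and stood at 9.28 in 2855, 7.06 in 780 and 6.30 in 2508. Each group held high and low lines. The difference of -2.48 had an SE of 1.36 (limma adjusted p = 0.999, exact permutation p = 0.151).

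Csf3, the granulocyte colony-stimulating factor, lay between 5.31 and 5.68 in the 5 Myc lines. The other GEM lines held 5.91 in 2508, 6.19 in 2855, 4.93 in 780, 6.47 in DB7, 6.78 in M6, 5.84 in M6C and 7.27 in p1522. Only 780 fell among or below the Myc lines. The difference was -0.69 (SE 0.34, limma adjusted p = 0.968, exact permutation p = 0.111), and it ran from -1.01 without 780 to -0.42 without p1522. Csf1 averaged 9.66 ± 0.23 (SD, n = 5) and 9.80 ± 1.13 (SD, n = 5), a difference of -0.15 (SE 0.45) that ran from -0.64 without M6 to 0.037 without ZD2508, the lineage of 2508 and 2855. Within the other GEM lineages the M6 pair stood apart at 7.98 and 7.68, with the remaining 4 lineages between 9.96 and 10.55. Csf2 averaged 4.24 and 4.30, a difference of -0.05 (SE 0.12).

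Ccl2, the main monocyte attractant, was the only one of the 10 with the higher mean in Myc lineages. It stood at 10.22 in 6DT1, 11.09 in MVT1, 8.97 in MVT2, 9.28 in Myc83 and 10.34 in cMyc, against 11.47 in p1522, 9.66 in 2855, 8.80 in 780, 8.54 in 2508, 7.71 in DB7, 7.60 in M6 and 6.78 in M6C. Apart from p1522 and 2855, the other GEM lines lay below all Myc lines. The difference was 1.12 (SE 0.71, limma adjusted p = 0.999, exact permutation p = 0.206), and it ran from 0.71 without M6 to 1.78 without p1522. Ccl7, its neighbour and fellow Ccr2 ligand, differed by -0.57 (SE 0.60), and Ccl20 by -0.33 (SE 0.19), both with a limma adjusted p of 0.999. With 1 lineage left out, Ccl7 ran from -1.04 without M6 to -0.22 without 780, and Ccl20 reached -0.18 without p1522.

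Across the 10 genes, 9 were lower in Myc lineages, where 41.9% of all probe sets were lower. Their median difference was -0.48, and that of all probe sets was 0.03. By limma, 0 of the 10 passed the adjusted threshold (background 0.0119%, 2 probe sets) and 2, Cxcl5 and Cxcl1, had an unadjusted p under 0.05 (background 5.41%). Culture medium differed between the groups. MVT1, MVT2 and 780 share the only medium that holds both. Within it the Myc minus other difference was -1.22 for Cxcl5, 0.01 for Cxcl1, -0.47 for Lcn2, 0.56 for Csf3, 1.23 for Ccl2 and -2.39 for Ccl7, each on 3 arrays with no test. It was 0.16 for Cxcl2, 0.077 for Csf2, 0.065 for Ccl20 and -0.55 for Csf1.

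**Figure D2:**
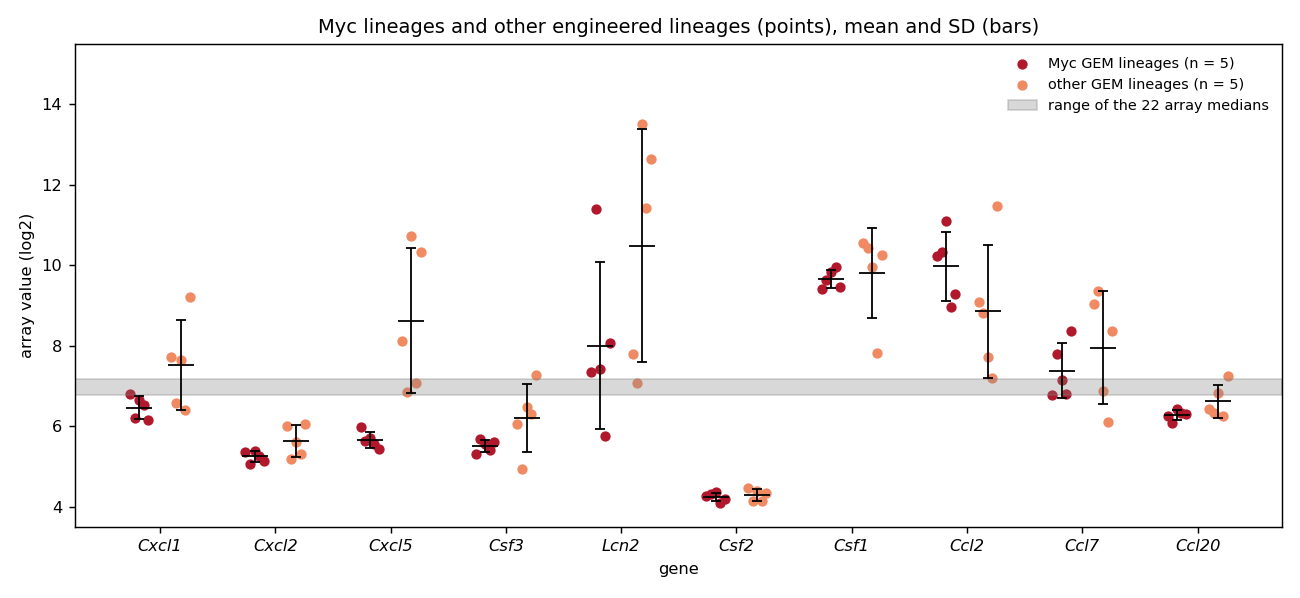
Log2 array value of the 10 genes in the 5 Myc lineages and the 5 other GEM lineages, 1 point per lineage, with the mean and SD of each group as bars and the range of array medians in grey. For Cxcl5 the Myc points lie together between 5.44 and 5.98, below the lowest other GEM lineage at 6.86, and for the other 9 genes the groups overlap.

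GEM lineages were next set against spontaneous lineages. None of the 10 genes differed past the threshold by limma. The adjusted p-values ran from 0.699 to 0.978, 0 genes passed at 0.05 (background 0.113%), and 0 had an unadjusted p under 0.05 (background 7.72%). Means were lower in GEM lineages for 5 genes (background 59.3%) and higher for 5 (background 40.7%). For Lcn2 the GEM lineages averaged 9.24 ± 2.71 (SD, n = 10) and the spontaneous lineages 7.62 ± 2.33 (SD, n = 5). Cxcl5 averaged 7.15 ± 1.98 (SD, n = 10) and 8.70 ± 1.64 (SD, n = 5), with D2 lines at the top of the whole series, 11.32 in D20R and 10.96 in D2A1. The Cxcl5 difference was -1.55 (SE 0.90), close to 1 SD of either group. Ccl2 averaged 9.42 ± 1.38 (SD, n = 10) and 8.14 ± 0.34 (SD, n = 5), a difference of 1.28 (SE 0.65, exact permutation p = 0.0676).

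Tumour lineages were also compared with the immortalized lines EPH4 and NMUMG. By limma 0 of the 10 genes passed the adjusted threshold (background 0.298%), with adjusted p-values from 0.265 to 0.987, and 2 had an unadjusted p under 0.05 (background 11.9%). Means were lower in tumour lineages for 6 of the 10 (background 45.6%). The 2 were Ccl20 and Cxcl2, and each rested on 1 immortalized line. Ccl20 was at 7.66 in NMUMG, the highest of all lines, and at 6.48 in EPH4, against a tumour mean of 6.39 ± 0.29 (SD, n = 15). With both tumour origins weighted equally, the limma difference was -0.70 (SE 0.26). The exact permutation test, on the plain difference of means over lineages, gave p = 0.0221. With EPH4 left out the difference was -1.30 (limma adjusted p = 0.0495), and with NMUMG left out it was -0.11. Cxcl2 was at 6.95 in EPH4, again the highest of all lines, and at 5.51 in NMUMG, against 5.49 ± 0.32 (SD, n = 15). That difference was -0.72 (SE 0.29), -1.44 without NMUMG (limma adjusted p = 0.0271) and 0.0017 without EPH4. A lone immortalized line is assumed in those fits to vary like the other groups.

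The 4T lines compare cells of 1 tumour with different reported capacity to spread. The 4T1 array had higher levels of Cxcl1, Cxcl5, Csf3 and Lcn2 than those of 4T07 and 67NR, whereas Ccl2 and Ccl7 were highest in 67NR. Cxcl5 was at 9.50 in 4T1, 6.58 in 4T07 and 7.27 in 67NR, so 4T1 was 7.54-fold above 4T07 and 4.67-fold above 67NR. Cxcl1 was at 8.37, 6.69 and 6.57, and 4T1 was 3.20-fold and 3.49-fold above the others. For both chemokines 4T07 and 67NR lay within 1 log2 unit of each other. Cxcl2 stood at 5.96, 5.20 and 5.65, differences under 1 log2 unit.

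Csf3 was at 7.86 in 4T1, 5.61 in 4T07 and 5.54 in 67NR, or 4.75-fold and 4.99-fold higher in 4T1. This was the highest Csf3 level of the 22 lines, ahead of p1522 at 7.27, and 1 of 2 lines in which Csf3 exceeded its array's median. Lcn2 ran in steps, from 6.40 in 67NR to 8.96 in 4T07 and 11.27 in 4T1, so 4T1 was 29.2-fold above 67NR and 4.96-fold above 4T07. Csf2 too was highest of all lines in 4T1 (4T1 was the highest for 2 of the 10 genes and for 1.59% of all probe sets), at 4.92 against 4.44 and 4.58, but all these values lie below the array medians. Csf1 differed by less than 1 log2 unit, at 10.18 in 4T1, 9.96 in 4T07 and 10.77 in 67NR.

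The monocyte attractants had another order. Ccl2 was at 8.80 in 4T1, 7.01 in 4T07 and 9.36 in 67NR, and Ccl7 at 6.88, 6.15 and 8.63. For both genes 67NR was the highest and 4T07 the lowest of the trio. The 4T1 minus 67NR difference was -1.75 for Ccl7. Ccl20 was at 6.20, 6.07 and 6.57, within 1 log2 unit.

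Counted together, 5 of the 10 genes were higher in 4T1 than in 4T07 by more than 1 log2 unit (background 1.4%) and 0 were lower by as much (background 1.78%). Against 67NR, 4 were higher (background 7.31%) and 1 was lower (background 5.5%). Cxcl1, Cxcl5, Csf3 and Lcn2 exceeded both, as did 0.931% of probe sets. Both differences use the same 4T1 array, so they are not independent of each other, and with 1 array per line none has a test. Epithelial markers differed in the same lines, with 6 of 7 higher in 4T1 than in 67NR by more than 1 log2 unit and 3 of 7 higher than in 4T07. Their mean level was 9.20 in 4T1, 8.58 in 4T07 and 6.22 in 67NR, and Epcam stood at 10.84, 9.63 and 6.07. For the 7 fibroblast markers the median 4T1 minus 4T07 difference was 0.10, and that of all probe sets was 0.05. Against 67NR it was -0.26, and that of all probe sets was -0.10. None was higher in 4T1 by more than 1 log2 unit. Pdgfra was lower than in 4T07 by more than 1, at 6.22 against 7.25. Pdgfra, at 9.27 in 67NR, and Pdgfrb, at 5.95 in 4T1 and 9.01 in 67NR, were lower than in 67NR by more than 1. The part of these differences in the cytokine differences was not tested. Leukocyte markers averaged 5.34 in 4T1, 5.32 in 4T07 and 5.52 in 67NR.

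**Figure D3:**
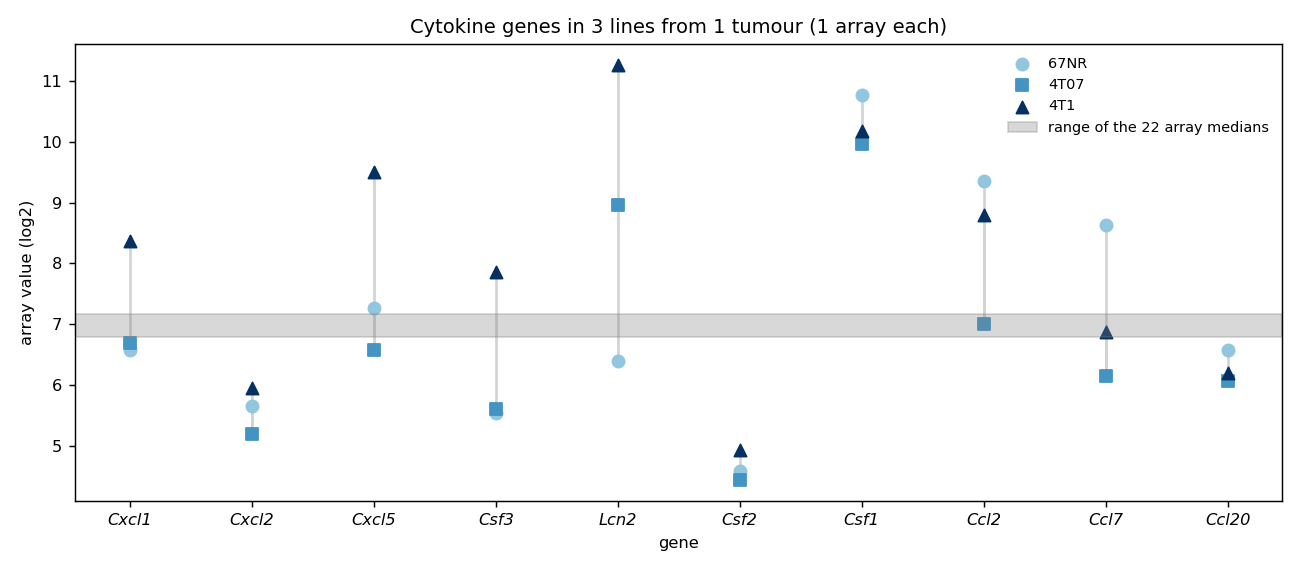
Log2 array value of the 10 genes in 67NR, 4T07 and 4T1, 1 array per line and no error bars, with the range of array medians in grey. Cxcl1, Cxcl5, Csf3 and Lcn2 are highest in 4T1 by more than 1 log2 unit, whereas Ccl2 and Ccl7 are highest in 67NR.

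Other pairs of lines, of shared origin or of one class, showed how far these genes vary between close lines. Between the Wnt lines, all 10 were higher in 2855 than in 2508 (background 61.4%), 3 of them by more than 1 log2 unit (background 2.41%). Those 3 were Lcn2 by 2.98, Ccl2 by 1.12 and Ccl7 by 1.11. Scaling moved both counts. After quantile normalization 9 were higher and 5 passed 1, with Cxcl1 and Cxcl5 added, and after median centring 9 were higher and 2 passed, with Ccl7 at 0.998. M6C, from a lung metastasis, differed from M6 by less than 1 log2 unit for all 10, with Csf3 at -0.94 and Cxcl5 at 0.94 the farthest (background 1.11% higher and 0.46% lower by more than 1). In the D2 pair, D2A1 exceeded D20R by 2.59 for Lcn2 and 1.10 for Csf1 (background 2.12%), and the others were within 1 log2 unit. After quantile normalization Csf1 was at 0.93 and Ccl2 at -1.03. MVT1 exceeded MVT2 by 2.13 for Ccl2 and 1.65 for Lcn2 (background 1.13%). NMUMG was above EPH4 for Ccl2 by 3.47, Ccl7 by 1.90 and Ccl20 by 1.19 (background 4.79%). The same subtraction gave -2.06 for Lcn2, -1.46 for Csf1 and -1.44 for Cxcl2 (background 4.68%). Lcn2 therefore differed by more than 1 log2 unit within 4 of these 5 pairs.

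Over the 17 lineages, the Cxcr2 ligands were positively correlated, Cxcl2 with Cxcl5 the least. Cxcl2 exceeded its array's median in only 1 line. Pearson's r was 0.86 for Cxcl1 with Cxcl5 (Spearman's rho 0.86), 0.76 for Cxcl1 with Cxcl2 (rho 0.89) and 0.59 for Cxcl2 with Cxcl5 (rho 0.74). Over the 12 lineages without a Myc transgene the same coefficients were 0.80, 0.66 and 0.39. Csf3 with Lcn2 had r = 0.70 (rho 0.75) over all lineages and 0.73 without the Myc lineages, and the neighbours Ccl2 and Ccl7 had 0.49 (rho 0.66) and 0.67. Over all 45 pairs of the 10 genes the median r was 0.21, and the lowest was -0.32 for Csf1 with Lcn2. The points share their array, its scaling and, within groups, their genotype and medium. Among 7608 genes searched, those most like Cxcl1 were Cxcl5, Ier3 (0.82) and Nfkbiz (0.81), and those most like Cxcl5 were Cxcl1, Nfkbiz (0.85) and Gsta4 (0.83). Nfkbiz encodes a nuclear cofactor of NF-kappaB and Ier3 an early response gene. For Csf3 they were Aig1 (0.78), Rtkn (0.75) and Socs3 (0.74), the last an inhibitor of cytokine signalling, and for Lcn2 they were Smox (0.77), Ndufc2 (0.76) and Abl1 (0.75). B4galt1 (0.86), Tbcel (0.84) and Ston2 (0.83) were most like Ccl2, Smad1 (0.77), Smarca2 (0.75) and Bcas3 (0.72) most like Ccl7, and Rab11a (0.82), Dram2 (0.80) and Trp53inp1 (0.80) most like Ccl20. The closest to Cxcl2 were Golga7 (0.81), Tspan11 (0.79) and Sh3pxd2a (0.76), and to Csf1 Slc48a1 (0.82), Sec24d (0.77) and Gabbr1 (0.75). For Csf2, below its array's median in every line, they were Bet1l (0.84), Gpa33 (0.78) and Tmem222 (0.75). Spearman's rho was well below r for some. It was 0.47 for Rab11a and 0.52 for Dram2 with Ccl20, all highest in NMUMG, and 0.39 for Sec24d with Csf1, both lowest in M6. Each gene was picked for its high r among 7608 over 17 lineages, with no test.

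**Figure D4:**
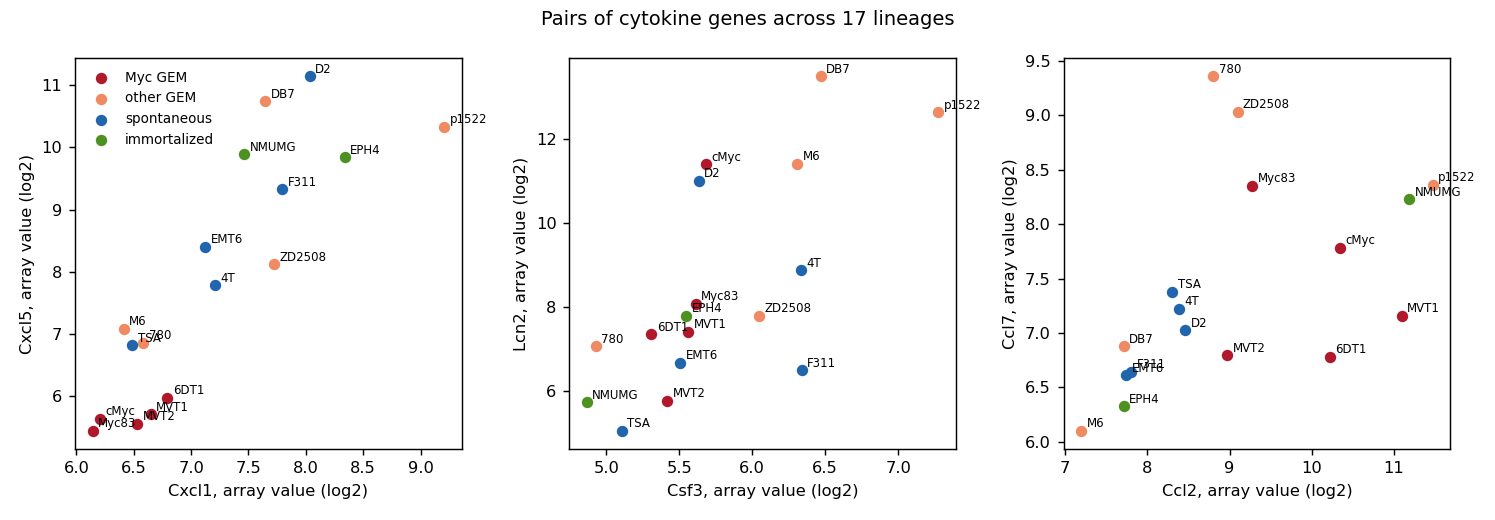
Log2 array values of Cxcl5 against Cxcl1, Lcn2 against Csf3 and Ccl7 against Ccl2, 1 point per lineage for 17 lineages, coloured by group. In the first panel the Myc lineages sit at the lower left and D2, DB7 and p1522 at the top; in the third, 780 and ZD2508 have the highest Ccl7 levels at intermediate Ccl2.

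The receptors of these proteins lay mostly below the array medians. Of 12 measured, 10 exceeded the highest array median in 0 lines, among them Cxcr2, Cxcr1, Csf1r, Csf3r, Ccr2 and Ccr6. The exceptions were Slc22a17, an Lcn2 receptor, in all 22 lines, and the scavenging chemokine receptor Ackr2 in 2. By limma 0 of the 12 receptors passed the adjusted threshold, and 0 had an unadjusted p under 0.05, in each of the 3 group comparisons. Within the 4T lines 0 of 12 differed by more than 1 log2 unit in 4T1 against either line.

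Other myeloid attractants and the NF-kappaB pathway were read beside the 10 genes. In Myc against other GEM lineages, 0 of 17 other attractants passed the adjusted limma threshold and 1 had an unadjusted p under 0.05, where 5.41% of all probe sets did. That gene was Cxcl16, a membrane-bound chemokine, at 6.47 ± 1.04 (SD, n = 5) against 8.58 ± 0.81 (SD, n = 5), with a limma adjusted p of 0.643. Of 17 measured NF-kappaB pathway and feedback genes, 11 were lower in Myc lineages (background 41.9%), 0 passed the adjusted limma threshold (background 0.0119%) and 5 had an unadjusted p under 0.05 (background 5.41%). Tnfaip3, a feedback inhibitor of the pathway, averaged 6.68 ± 0.11 (SD, n = 5) and 7.56 ± 0.59 (SD, n = 5), a difference of -0.88 (SE 0.24, limma adjusted p = 0.788). In tumour against immortalized lineages 1 of the 17 passed (background 0.298%), Tnip3, another inhibitor of the pathway. Tnip3 was lower in tumour lineages by 2.21 log2 units (difference -2.21, SE 0.38, limma adjusted p = 0.0224). It averaged 5.65 in tumour lineages and 7.76 in the 2 immortalized lines. Tnip3 exceeded every array median only in EPH4, at 7.83, and NMUMG, at 7.68. With the lowest probe sets left out, 0 probe sets passed as lower in tumour lineages. Of the 16 inducing cytokines and their receptors, 0 passed in any of the 3 comparisons by limma, and 1, 4 and 0 had an unadjusted p under 0.05 (background 5.41%, 7.72% and 11.9% in that order).

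Of the 2 genes with the largest difference in each list and group comparison, Tnip3 passed the adjusted limma threshold and the others did not. In Myc minus other GEM lineages these were Ackr2 at 0.29 and Ccr2 at 0.27 among receptors, Ccl5 at -1.70 among attractants, the NF-kappaB inhibitor Nfkbie at -0.71, and the interleukin-17 receptor Il17ra at 1.07 and Il33 at -0.79 among inducers. In GEM minus spontaneous lineages they were Ackr2 at -0.29, the receptor subunit Csf2rb at -0.15, Cxcl16 at -0.60, Ccl9 at 0.47, Nfkbie at -0.79, Nfkb2 at -0.76, the cytokine Il18 at 1.09 and the endotoxin receptor Tlr4 at 1.05. In tumour lineages minus immortalized lines they were Cxcr2 at -0.37, Ccr6 at -0.33, Cxcl16 at -2.12, Cx3cl1 at 1.76, Tnfaip2 at 0.93, Il33 at -1.30 and the interleukin-1 receptor Il1r1 at 0.90. For the receptors the 4T1 minus 4T07 values were 0.34 for Cxcr1 and 0.31 for Ccr2, and the 4T1 minus 67NR values were -0.61 for Ackr2 and -0.34 for Csf2rb.

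In the 4T lines, 1 of the 16 inducing cytokines and receptors was higher in 4T1 than in 4T07 by more than 1 log2 unit (background 1.4%) and 2 were lower (background 1.78%). Against 67NR 2 were higher (background 7.31%) and 2 lower (background 5.5%). The cytokine interleukin-1 alpha (Il1a), an inducer of many of these genes, was higher against both, at 10.21 in 4T1, 4.43 in 4T07 and 4.67 in 67NR. The next highest of the 22 lines was F311 at 7.85. Tnfaip3 was at 9.25 in 4T1, 7.76 in 4T07 and 6.38 in 67NR. Of the 17 NF-kappaB genes, 3 were higher in 4T1 than in 4T07 by more than 1 log2 unit (Nfkbiz, Tnfaip3 and Tnip1, background 1.4%). Against 67NR 3 were higher (Nfkbie, Tnfaip3 and Birc3, background 7.31%) and 1, Ikbkg, was lower (background 5.5%). Of the 17 other attractants, 2 were higher in 4T1 than in 4T07 by more than 1 (background 1.4%) and 0 were lower (background 1.78%). Against 67NR 2 were higher (background 7.31%) and 3 lower (background 5.5%). Their median difference from 67NR was -0.24, and that of all probe sets was -0.10. Ccl5, a T cell and monocyte attractant, exceeded 4T07 by 1.74 and 67NR by 1.79, and Cxcl16 by 1.02 and 5.19. The 3 lower genes differed from 67NR by -1.95 for Ccl9, -1.11 for Cxcl12 and -1.07 for Il34. Tslp, an epithelial cytokine, did not follow one direction, at 8.09 in 4T1, 10.28 in 4T07 and 4.18 in 67NR. Il33, an alarm cytokine of epithelium, was lowest in 4T1, at 5.82 against 7.04 in 4T07 and 8.99 in 67NR, and the TNF receptor Tnfrsf1b was at 8.06 in 4T1 and 9.77 in 67NR.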

How the data were processed

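RNA of 22 lines was measured on mouse exon arrays, 1 array per line. The deposited values, 1 for each probe set and array, were read as log2 because of their range, as no header or label names the scale. The submitters' processing notes name GCOS and the build mm9. How the authors corrected background, summarized probes and normalized arrays is not given in the sources used, so scaling between arrays could move any value. Of 23332 entries, the 16755 numbered as transcript clusters were tested and 6577 were left out. Each of the 10 genes had 1 row. Array medians lay between 6.78 and 7.17, and the number of arrays limits the precision.

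Lines of shared origin were averaged into 17 lineages. Nothing in the labels describes repeat cultures, so p-values measure the spread between lineages. Myc and other GEM lineages (5 against 5) were fitted alone. The other comparisons came from 1 fit of all 17 lineages, in which both tumour origins weighed equally against the immortalized lines. Tests used limma 3.58.1 (lmFit and eBayes, R 4.3.3) with Benjamini-Hochberg adjustment over all 16755 probe sets at 0.05, and exact two-sided permutation tests of mean differences over lineages, unadjusted. Pairs of single lines had no test, and a difference of 1 log2 unit was used to describe them.

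Named genes were the 10, the members of 4 lists (receptors, other attractants, NF-kappaB, inducers) past the threshold, the 2 with the largest difference in each comparison, and the 3 genes most correlated with each of the 10, among 7608 genes with 1 symbol and a mean above the median. Some other list members are named with counts, after their values were seen. The genes, lists and tests were chosen with earlier results of these data known. Promoters came from a RefSeq table of GRCm38.p6, whose build differs from mm9, so no array position is printed. Trp53, Krt7, Krt8 and Cxcl3 were not analysed here.

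On simulated data, 200 of 16755 probe sets were given known changes. Noise was normal and independent between probe sets, and each probe set had the same SD in every group. Real groups could differ in spread, as for Cxcl5 with an SD of 0.20 in Myc and 1.81 in other GEM lineages. For changes of 2 log2 units, limma recovered 95% in the Myc comparison, 97% in the GEM and spontaneous comparison and 93% in the tumour and immortalized comparison. False calls were 14, 12 and 12 in the same order. These rates are for the changed probe sets together, and recovery for genes as variable as Lcn2 and Cxcl5 was not measured. The SD of Lcn2 and Cxcl5 over the lineages, 2.57 and 1.98, exceeded that of 99.98% and 99.8% of probe sets. In the Myc comparison their differences of -2.48 and -2.96 had limma adjusted p-values of 0.999 and 0.643. Alternatives were each line as a replicate, quantile normalization, median centring, leaving out the lowest probe sets, and leaving out each lineage. The Myc comparison was also run with MVT1 and MVT2 averaged, with every entry, and with the spread shared over 17 lineages. Python 3.11.15 ran the other steps, with scipy 1.17.1, pandas 2.3.3 and numpy 2.4.6, and matplotlib 3.10.9 drew the plots.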

Additional observations from a re-analysis of the deposited data

Results flagged for a closer look

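Csf1 in the M6 lineage lay far from the other GEM lineages without Myc. Its lineage mean was 7.83, from 7.98 in M6 and 7.68 in M6C, and the remaining 4 lineages lay between 9.96 and 10.55. The gap to the nearest lineage took up 0.784 of the group's range. Of 30 sets of gene and group examined this way, 1 stood out, and chance picks out about 1 in 20.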

How the results depend on the processing

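For Cxcl5, the Myc mean stayed below that of other GEM lineages in all 17 alternative fits. Differences were -2.98 to -2.67 over the settings and -3.40 to -2.43 with 1 lineage left out. The exact permutation p ran from 0.00631 to 0.0238, and the limma adjusted p from 0.277 to 1.00. The value of 0.00631 came with each line as a replicate, which counts lines of 1 lineage separately. With MVT1 and MVT2 averaged into 1 lineage the exact permutation p was 0.0238. Counts of all probe sets past the threshold moved more. For Myc against other GEM they went from 2 to 4 with each line as a replicate, to 0 with the spread shared over 17 lineages (limma, 924 at an unadjusted p under 0.05), and from 2 to 15 with 1 lineage left out, 15 without p1522. For GEM against spontaneous the count of 19 became 91 with each line as a replicate and 9 (without D2) to 32 (without 780) with 1 lineage left out. Without 4T it was 10 and without EMT6 12. For tumour against immortalized the count of 50 became 103 with each line as a replicate, 120 after quantile normalization, 2 with the lowest probe sets left out, and 28 (without 6DT1) to 413 (without NMUMG) with 1 lineage left out. It was 139 without EPH4, 82 without TSA, 33 without EMT6, and 32 without 4T or D2. The cause of these moves was not tested, beyond the fewer or more lineages or probe sets in each fit. The split of higher and lower calls in that comparison was 19 and 31 in the reported fit, 59 and 61 after quantile normalization and 15 and 43 after median centring. Without 2508, 2855 and F311, chosen after seeing the data, 15 and 64 probe sets passed in the last 2 comparisons. Some small differences changed sign. In Myc against other GEM, Csf1 was 0.028 with each line as a replicate and -0.64 to 0.037 with 1 lineage left out. In GEM against spontaneous, Csf2 ran from -0.14 to 0.0038 and Csf3 from -0.092 to 0.22 with 1 lineage left out. In tumour against immortalized, Csf2 was -0.021 after median centring and -0.032 without 2508, 2855 and F311. With 1 lineage left out it ran from -0.12 to 0.14, Cxcl2 from -1.44 to 0.0017, Csf1 from -0.88 to 0.58, Ccl2 from -2.41 to 1.07 and Ccl7 from -0.91 to 0.99. The higher 4T1 levels of Cxcl1, Cxcl5, Csf3 and Lcn2 passed 1 log2 unit against both lines also after quantile normalization and median centring. Averaging several rows of a gene was not run, since each gene had 1 row. No paired analysis was possible because the groups share no replicate numbers that mark a common source. The unstated normalization, single arrays and 2 immortalized lines limit all comparisons.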

Other observations

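Cd68 differed between GEM lineages beside the chemokines. It averaged 9.32 ± 1.28 (SD, n = 5) in Myc lineages and 7.31 ± 0.80 (SD, n = 5) in the others, a difference of 2.01 (SE 0.58, limma adjusted p = 0.788). The groups overlapped, since Myc83 at 7.28 lay below 780 at 7.67 and p1522 at 8.55. The 9 other measured leukocyte markers, Ptprc among them, had limma unadjusted p-values above the threshold in that comparison. Cx3cl1, the membrane-bound chemokine fractalkine, averaged 9.69 ± 0.69 (SD, n = 15) in tumour lineages and 7.86 ± 0.66 (SD, n = 2) in immortalized lines. With both tumour origins weighted equally, the difference was 1.76 (SE 0.48, limma adjusted p = 0.117). In GEM against spontaneous lineages, Nfkb2, a subunit of NF-kappaB, was at 8.48 ± 0.46 (SD, n = 10) and 9.24 ± 0.36 (SD, n = 5), with a limma adjusted p of 0.232.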
